A study of Mus musculus with 7 samples.

Results

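The transcription factor Nrf2 (gene Nfe2l2) and 7 antioxidant genes known as its targets were followed in mouse muscle satellite cells isolated 2 or 4 days after death (D2PM and D4PM) and from living old mice. The 7 targets were Srxn1, Nqo1, Hmox1, Gclc, Gclm, Txnrd1 and Slc7a11. These 8 genes were chosen by name, with the lower signal of Srxn1 and other targets on the post-mortem arrays here already known. Their values in the comparisons with old mice are therefore given as a description, with no p-value. How many of them passed the threshold used for all genes is stated once beside the share of all genes that did, and is not evidence about them. Of the 8 genes, 7 had a probe set annotated to that gene alone, and 6 of those had a mean signal past the filter on dim probe sets, out of 9944 genes past it in the whole table. Slc7a11, the cystine importer, had no such probe set here and is only named. Each of the 7 genes had 1 probe set.

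Skeletal muscle is repaired by its resident stem cells, the satellite cells. All animals carried the Tg:Pax7-nGFP transgene, in which the promoter of Pax7, a satellite cell transcription factor, drives a nuclear green fluorescent protein. GFP-positive cells were sorted and their RNA was amplified and hybridised to Affymetrix mouse gene arrays. D2PM cells were hybridised to 2 arrays, D4PM cells to 3 and old cells to 2. The study describes the post-mortem animals as young mice, with an age in weeks, while their array labels give no age. The living mice were 24 to 26 months old by the array labels, whereas the series title calls them young adults and the design text gives the span in weeks. The labels were followed here. Between the post-mortem groups and the old group, death and the age of the animals cannot be told apart. The labels do not say whether each array stands for its own animal, so the errors and p-values below measure only the spread between these arrays, which may be technical.

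Nrf2 is held in the cytoplasm by Keap1, which delivers it for degradation. When oxidants or electrophiles modify Keap1, Nrf2 accumulates, enters the nucleus with a small Maf partner and binds antioxidant response elements, a place for which the repressor Bach1 competes. Its targets supply glutathione and thioredoxin, reduce quinones and break down haem. Because Nrf2 is controlled largely through the stability of its protein, its mRNA level and the level of its targets are separate measurements.

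Promoter stretches are shown first, because the antioxidant response element is what the genes are known to share. Promoters from 250 bases before to 50 bases after the transcription start were taken from RefSeq (GRCm38.p6), and the promoter table used here listed 6 of the 8 genes. Both strands were searched for the core TGACNNNGC and for a Maf-type element in the forms TGACTCAGC and TGAGTCAGC. They were also searched for TGACTCA, the AP-1 site, which lies inside the Maf-type element. The form TGAGTCAGC was added after the promoters had been read, and it does not contain the core. The core was present in 12.4% of the 32851 mouse promoters, TGACTCAGC in 0.454%, TGAGTCAGC in 0.414% and the AP-1 site in 5.2%. The stretches below run 5′ to 3′ on the gene's strand, with capitals marking the match.
Nfe2l2, chr2:75704879-75704913, minus strand: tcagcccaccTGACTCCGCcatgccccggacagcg
Gclm, chr3:122245407-122245447, plus strand: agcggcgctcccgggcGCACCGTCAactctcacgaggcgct
Txnrd1, chr10:82859098-82859138, plus strand: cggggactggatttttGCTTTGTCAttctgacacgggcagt
Srxn1, chr2:152105406-152105503, plus strand: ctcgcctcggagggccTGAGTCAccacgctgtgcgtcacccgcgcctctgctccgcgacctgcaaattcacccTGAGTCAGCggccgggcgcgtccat
The match began at base -240 in Nfe2l2, at -134 in Gclm and at -92 in 1 of the 3 promoters listed for Txnrd1, counted from the start site. In Gclm and Txnrd1 the core read on the other strand. Srxn1 held an AP-1 site at -102 and the Maf-type form TGAGTCAGC at -45, whose first letters are a further AP-1 site. Its only core was at base 29 past the start, outside the stretch shown. None of these letters lay in the windows of Nqo1 and Slc7a11. Sequence outside the windows was not searched, so this does not show that these genes lack an element. A match is a description of the sequence and was not tested as a binding site.

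All values below are on the log2 scale of the deposited table, on which a difference of 1 is a doubling. The array medians lay between 6.11 and 6.19. The mean of the 12 satellite cell markers lay between 10.02 and 10.12 on the D2PM arrays, between 9.98 and 10.18 on the D4PM arrays and at 9.99 and 10.10 on the old arrays, and Pax7 lay between 9.87 and 10.52 on all 7. The members of this list moved both ways. In D2PM cells 2 were higher and 2 lower than in old cells (33.3% called, beside 19.4% of all genes). In D4PM cells 3 were higher and 3 lower (50% called, beside 27.9% of all genes). Myod1, a myogenic determination factor, was 1.11 lower in D2PM cells and 1.35 lower in D4PM cells than in old cells. Vcam1, a surface adhesion molecule, was 0.66 and 0.81 lower. Heyl, a Notch target, was 0.82 and 0.79 higher, and Calcr, the calcitonin receptor, 0.60 and 0.51 higher. The other markers called in D4PM cells were Itga7, 0.44 lower, and Cd34, 0.89 higher. The mean signal of the myofibre and endothelial marker lists moved with the comparison. Beside 10.3% of all genes called higher in D2PM cells and 12.4% in D4PM cells, 10 of the 11 myofibre markers tested were higher at each time after death, with list means of 7.96 to 8.12 in D2PM cells, 7.88 to 8.21 in D4PM cells and 6.81 to 7.18 in old cells. Of the 15 endothelial markers, 5 were higher in D2PM cells and 11 in D4PM cells. Of 8 fibroadipogenic progenitor markers tested, Lum at 0.89 and Col1a2 at 0.59 were higher in D2PM cells, and limma called 0 in D4PM cells, with 1, Dcn, at an unadjusted p under 0.05. Of 18 macrophage markers listed, 14 had a probe set and 7 were tested, of which 1, Cd14, was lower at both times. The macrophage list means were 4.93 and 5.11 in D2PM cells, 4.91 to 5.09 in D4PM cells, and 4.97 and 5.51 in old cells. Of 5 neutrophil markers tested, limma called 0 at each time, and the list means overlapped between the groups. The part of these cells in the results below was not tested.

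Nfe2l2, the gene for Nrf2 itself, stood at 8.78 and 8.80 on the D2PM arrays, at 9.15, 9.20 and 9.17 on the D4PM arrays, and at 9.40 and 9.22 on the old arrays. The groups did not overlap, and their order was D2PM below D4PM below old. The means were 8.79 ± 0.01 (SD, n = 2) in D2PM cells, 9.17 ± 0.03 (SD, n = 3) in D4PM cells and 9.31 ± 0.13 (SD, n = 2) in old cells. The difference from old cells was -0.52 (SE 0.13) in D2PM cells, a 1.43-fold lower signal, and -0.14 (SE 0.12) in D4PM cells. Here and below the standard error comes from the limma fit over all genes. In D4PM cells the difference from old was close to its error, and the lowest old array stood just above the highest D4PM array. Because the arrays hold RNA from sorted pools, fewer cells with a transcript and less of it per cell cannot be told apart.

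The ligase that makes γ-glutamylcysteine, the first and limiting step of glutathione synthesis, has a catalytic subunit encoded by Gclc and a modifier subunit encoded by Gclm. Gclm read 7.65 and 7.23 on the D2PM arrays, 7.30, 7.41 and 7.60 on the D4PM arrays, and 8.68 and 8.69 on the old arrays. Every post-mortem array was about a full log2 unit or more below both old arrays, which were nearly equal. Gclm was -1.25 (SE 0.17) relative to old in D2PM cells and -1.25 (SE 0.15) in D4PM cells, which are 2.37-fold and 2.38-fold lower signals. The catalytic subunit differed by less. Gclc read 7.41 and 7.34 on the D2PM arrays, 7.52, 7.29 and 7.06 on the D4PM arrays, and 7.66 and 8.23 on the old arrays. The post-mortem arrays were all below the old ones, but the old arrays differed from each other by more than the lower of them differed from the D2PM arrays. The difference of Gclc from old was -0.57 (SE 0.20) in D2PM cells and -0.65 (SE 0.18) in D4PM cells. Without old replicate 2 these were -0.28 and -0.37.

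Of the thioredoxin arm, Txnrd1 encodes the cytosolic thioredoxin reductase, which regenerates thioredoxin with NADPH, and Srxn1 encodes sulfiredoxin, which restores over-oxidised peroxiredoxins. Srxn1 read 9.06 and 8.85 on the D2PM arrays, 8.41, 9.12 and 8.12 on the D4PM arrays, and 10.82 and 11.04 on the old arrays. The highest post-mortem array, a D4PM one, stayed well below both old arrays. The means of Srxn1 were 8.95 ± 0.15 (SD, n = 2) in D2PM cells, 8.55 ± 0.52 (SD, n = 3) in D4PM cells and 10.93 ± 0.15 (SD, n = 2) in old cells. The differences were -1.98 (SE 0.26) in D2PM cells and -2.38 (SE 0.24) in D4PM cells, which are 3.93-fold and 5.2-fold lower signals. Among the 9944 genes, 9 had a lower difference than Srxn1 in D2PM cells and 6 in D4PM cells, a place that follows from how the genes were chosen. Txnrd1 read 7.84 and 8.31 on the D2PM arrays, 8.11, 7.92 and 7.65 on the D4PM arrays, and 9.14 and 8.86 on the old arrays. Its post-mortem arrays also lay below both old arrays. Txnrd1 was -0.92 (SE 0.20) relative to old in D2PM cells and -1.11 (SE 0.18) in D4PM cells, or 1.89-fold and 2.15-fold lower.

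Nqo1 encodes the quinone reductase that is often taken as the standard readout of Nrf2 activity. It read 4.05 and 4.07 on the D2PM arrays, 4.38, 4.04 and 4.00 on the D4PM arrays, and 3.93 and 3.96 on the old arrays. All of these lay below the filter on mean signal, 5.12, which is the 25th percentile of the probe sets with 1 gene, so Nqo1 was not tested. The table holds no detection call, so whether this probe set was above background is unknown. Its arrays did not move with those of Srxn1, Gclm and Txnrd1, since no post-mortem array was below an old one.

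Hmox1 encodes haem oxygenase 1, which breaks haem down to biliverdin, iron and carbon monoxide and is repressed by Bach1. It read 9.93 and 9.73 on the D2PM arrays, 10.38, 10.85 and 9.81 on the D4PM arrays, and 10.42 and 11.15 on the old arrays. Both D2PM arrays lay below both old arrays, whereas the D4PM arrays spanned the range between and overlapped the old ones. The means of Hmox1 were 9.83 ± 0.14 (SD, n = 2) in D2PM cells, 10.35 ± 0.52 (SD, n = 3) in D4PM cells and 10.78 ± 0.52 (SD, n = 2) in old cells. The difference from old was -0.95 (SE 0.30) in D2PM cells and -0.44 (SE 0.27) in D4PM cells. Without old replicate 2 the difference in D2PM cells was -0.59. Macrophages also express Hmox1, and the part of the macrophage signal given above in these values was not tested.

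**Figure D1:**
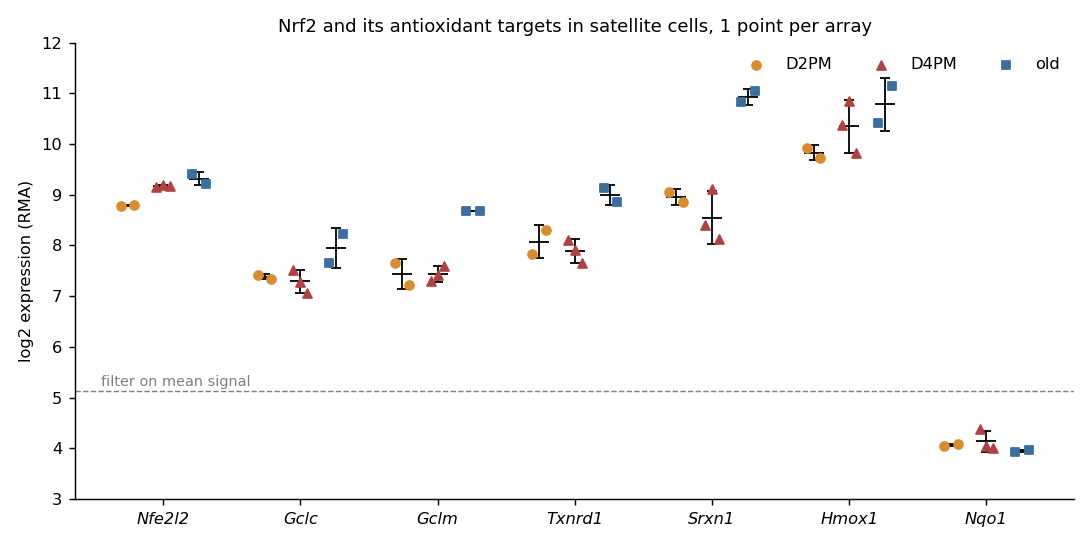
Log2 expression of the 7 genes with a probe set (vertical axis) on each array, with D2PM (circles), D4PM (triangles) and old (squares) side by side; horizontal bars give the mean and error bars the SD of 2, 3 and 2 arrays. Srxn1, Gclm and Txnrd1 show the clear gap between post-mortem and old arrays, Hmox1 overlaps in D4PM cells, and Nqo1 lies under the dashed filter line at 5.12 in every group. Levels of different genes come from different probe sets and are not to be compared.

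Taking the 6 genes past the filter together, 5 were called lower in D2PM cells than in old cells by limma at an adjusted p under 0.05 (Benjamini-Hochberg over all genes), beside 9.11% of all genes called lower in that comparison and 19.4% called in either direction. Gclc was not among the 5. In D4PM cells 4 were called lower, beside 15.5% of all genes called lower and 27.9% called in either direction, and Nfe2l2 and Hmox1 were not among them. In D2PM cells, 6 of the 6 genes had every array below every old array, a separation found in 30.6% of all genes, and in D4PM cells 5 of 6 had it, beside 27.9% of all genes. The median difference from old of the 6 genes was -0.94 in D2PM cells and -0.88 in D4PM cells, against 0.00 and -0.00 for all genes tested. Since the genes were chosen with these contrasts in view, and both contrasts use the same old arrays, nothing is read from these counts. The number called in D2PM cells rested on single arrays. It was lower when any D2PM or old array was left out, which leaves 1 array in a group. The number called over all genes was lower in each of these runs too. In D4PM cells Gclc was lost without D4PM replicate 2, D4PM replicate 3, old replicate 2 or either D2PM array. Fewer of all genes were called in these runs as well.

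The times after death were then compared with each other. By limma, 0 of the 6 were called between D4PM and D2PM cells, where 0.191% of all genes were, and 1, Nfe2l2, had an unadjusted p under 0.05, as did 7.76% of all genes. Nfe2l2 was 0.38 higher in D4PM cells than in D2PM cells (SE 0.12), with every D4PM array above both D2PM arrays, a separation in that direction found in 9.69% of all genes. In D4PM cells the mean of Hmox1 was 0.52 higher (SE 0.27) and that of Srxn1 lower, at -0.40 (SE 0.24). Each had overlapping arrays, and neither passed the adjusted or the unadjusted threshold. Gclc at -0.09 (SE 0.18), Txnrd1 at -0.19 (SE 0.18) and Gclm at -0.00 (SE 0.15) were within about 1 standard error of no difference. A difference that misses the threshold with 3 and 2 arrays does not show that the groups were alike.

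**Figure D2:**
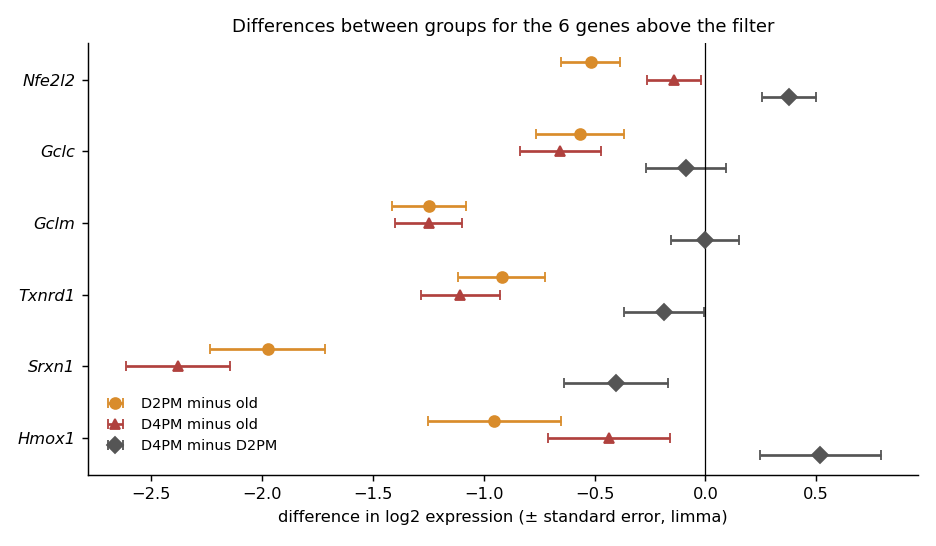
Differences in log2 expression (horizontal axis, points, with the limma standard error as bars) of the 6 genes past the filter for D2PM minus old (circles), D4PM minus old (triangles) and D4PM minus D2PM (diamonds). Both differences from old cells lie left of 0 for each gene, from -0.14 for Nfe2l2 in D4PM cells to -2.38 for Srxn1 in D4PM cells, and those between the times after death lie between -0.40 and 0.52.

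Over the 7 arrays, the signal of Srxn1 correlated with that of Gclm at r = 0.92, of Txnrd1 at 0.89 and of Gclc at 0.84, and with that of Hmox1 at 0.65. Nfe2l2 correlated with Hmox1 at 0.61, with Gclm at 0.60, with Txnrd1 at 0.49, with Srxn1 at 0.48 and with Gclc at 0.32. These are descriptions over 7 arrays that share the difference between the groups. The genes whose pattern was most like that of Nfe2l2 were Klk7 (r = 0.99), Mss51 (r = 0.99) and Lhx3 (r = 0.98), and for Hmox1 they were Nup107 (r = 0.96), Zdhhc16 (r = 0.95) and Capn2 (r = 0.94), each the nearest 3 of the 9944 genes.

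The rest of the pathway was followed through 111 further genes of known antioxidant function, of which 96 had a probe set and 91 were tested. This list was drawn up with earlier results of these arrays known. Most genes named from it were picked for passing the threshold, so their adjusted p-values are a description. The called genes of the list lay on both sides. In D2PM cells 17 were higher and 8 lower than in old cells (27.5% called, beside 10.3% of all genes called higher and 9.11% lower), with a median difference of 0.20. In D4PM cells 18 were higher and 9 lower (29.7% called, beside 12.4% of all genes called higher and 15.5% lower), with a median of 0.16. Of the 30 tested genes known as Nrf2 targets, 4 were higher and 4 lower in D2PM cells (26.7% called, beside 19.4% of all genes). In D4PM cells 5 of these targets were higher and 2 lower (23.3% called, beside 27.9% of all genes). The lower ones were Mafg and Ugdh at both times, and Abcc1 and Akr1b8 in D2PM cells. The higher ones were Cbr3 and Fech at both times, Sesn2 and Blvrb in D2PM cells, and Cbr1, Osgin1 and Ftl1 in D4PM cells. Abcc1, Akr1b8, Fech, Sesn2, Cbr1 and Osgin1 are named here after their values were seen. Their calls were lost without old replicate 2 for Abcc1, Akr1b8, Cbr1, Osgin1 and, in D2PM cells, Fech. They were also lost without old replicate 1 for Akr1b8, Sesn2 and Cbr1, without either D2PM array for Abcc1, Akr1b8, Sesn2 and, in D2PM cells, Fech, without D4PM replicate 1 for Abcc1, and without D4PM replicate 3 for Abcc1 and Cbr1. Between D4PM and D2PM cells limma called 0 of the 91, with 12 at an unadjusted p under 0.05, a threshold that 7.76% of all genes passed. In D2PM cells fewer of the 91 were called without any 1 of the D2PM or old arrays, and fewer of all genes as well. In D4PM cells the same held without old replicate 2.

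Among 11 regulators of Nrf2, 2 were lower in D2PM cells (18.2% called, beside 19.4% of all genes). In D4PM cells 4 were lower and 1 higher (45.5% called, beside 27.9% of all genes). Bach1, the repressor that competes for antioxidant response elements, read 8.51 and 8.38 on the D2PM arrays, 8.26, 8.34 and 8.06 on the D4PM arrays, and 8.89 and 9.02 on the old arrays. Bach1 was 0.51 lower than in old cells in D2PM cells (adjusted p = 0.0309) and 0.73 lower in D4PM cells (adjusted p = 0.00228). Mafg, one of the small Maf partners, was 0.58 lower in D2PM cells (adjusted p = 0.0294) and 0.65 lower in D4PM cells (adjusted p = 0.00768). Mafk, another small Maf, was 0.47 higher in D4PM cells (adjusted p = 0.0177), with a difference of 0.25 in D2PM cells that did not pass (adjusted p = 0.238). Keap1, the inhibitor of Nrf2, differed by 0.16 in D2PM cells (adjusted p = 0.46) and by 0.14 in D4PM cells (adjusted p = 0.433), neither of which passed. Without old replicate 2 the calls of Mafg and Mafk were lost, with Mafg at -0.35 in D2PM cells and -0.43 in D4PM cells. In D2PM cells Bach1 was lost without either D2PM or either old array, and Mafg without either D2PM array.

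Of 16 genes of glutathione synthesis, recycling and use, 3 were higher and 0 lower in D2PM cells (18.8% called, beside 19.4% of all genes). In D4PM cells 2 were higher and 1 lower (18.8% called, beside 27.9% of all genes). Gpx1, the main cytosolic glutathione peroxidase, read 10.44 and 10.47 on the D2PM arrays, 10.25, 10.57 and 10.33 on the D4PM arrays, and 9.19 and 8.81 on the old arrays. Gpx1 was 1.45 higher in D2PM cells (adjusted p = 0.000338) and 1.38 higher in D4PM cells (adjusted p = 0.000129), while the subunits of the ligase that feeds it were on the lower side. Gpx7, a peroxidase of the endoplasmic reticulum, was 0.59 higher in D2PM cells (adjusted p = 0.0185) and 0.49 higher in D4PM cells (adjusted p = 0.0192). Glrx, glutaredoxin, which removes glutathione from proteins, was 1.77 lower in D4PM cells (adjusted p = 0.0016). Its difference of -1.01 in D2PM cells was just outside the threshold (adjusted p = 0.0515). The calls of Gpx1 held with each of the 7 arrays left out, whereas Glrx in D4PM cells was lost without old replicate 2, and Gpx7 without either old array or, in D2PM cells, without D2PM replicate 1.

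Of 11 genes for thioredoxins, peroxiredoxins and sestrins, 6 were higher and 1 lower in D2PM cells (63.6% called, beside 19.4% of all genes). In D4PM cells 4 were higher and 1 lower (45.5% called, beside 27.9% of all genes). Txnip, whose protein binds and inhibits thioredoxin, read 10.68 and 11.01 on the D2PM arrays, 11.22, 11.61 and 11.27 on the D4PM arrays, and 8.83 and 8.93 on the old arrays. Each post-mortem array was above both old arrays. Txnip was 1.96 higher in D2PM cells (3.89-fold, adjusted p = 6.3e-05) and 2.48 higher in D4PM cells (5.59-fold, adjusted p = 2.5e-06). Sesn1, a p53-responsive sestrin, was 0.90 higher in D2PM cells (adjusted p = 0.00192) and 0.99 higher in D4PM cells (adjusted p = 0.000357). Txnrd3, a further thioredoxin reductase, was 0.64 lower in D2PM cells (adjusted p = 0.0212) and 0.97 lower in D4PM cells (adjusted p = 0.00101), the same side as Txnrd1. Txnip and Sesn1 kept their calls with each array left out, and Txnrd3 did so in D4PM cells but not in D2PM cells, where it was lost without either D2PM array or old replicate 2.

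Of 26 genes of detoxification and export, 3 were higher and 3 lower in D2PM cells (23.1% called, beside 19.4% of all genes). In D4PM cells 8 were higher and 1 lower (34.6% called, beside 27.9% of all genes). Mgst3, a microsomal glutathione transferase, was 1.15 higher in D2PM cells (adjusted p = 0.00763) and 0.92 higher in D4PM cells (adjusted p = 0.00955). Cbr3, a carbonyl reductase, was 0.81 higher in D2PM cells (adjusted p = 0.00422) and 0.92 higher in D4PM cells (adjusted p = 0.000706). Ugdh, which makes the glucuronic acid donor, was 0.94 lower in D2PM cells (adjusted p = 0.00225) and 1.10 lower in D4PM cells (adjusted p = 0.000299). Cbr3 and Ugdh are both known as Nrf2 targets and stood on opposite sides. Of 9 genes that supply NADPH, Pgls, an enzyme of the pentose phosphate pathway, alone was called (11.1% at each time, below the shares of all genes). Pgls was 0.64 higher in D2PM cells (adjusted p = 0.0123) and 0.55 higher in D4PM cells (adjusted p = 0.0105). Ugdh kept its calls with each array left out. In D2PM cells Mgst3, Cbr3 and Pgls were lost without D2PM replicate 1 or old replicate 2, with Mgst3 at 0.74 without the first of these, and in D4PM cells Mgst3 and Pgls were lost without old replicate 2.

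Of 10 genes of haem and iron, 2 were higher and 1 lower at each time (30% called, beside 19.4% and 27.9% of all genes). Erythroid markers are given beside them. Of 7 listed, 2 had a probe set and were tested, with list means of 5.74 and 6.04 in D2PM cells, 5.76 to 6.02 in D4PM cells, and 5.23 and 5.30 in old cells. Alas2, the erythroid enzyme that starts haem synthesis, was 1.07 higher in D2PM cells (adjusted p = 0.00413) and 0.97 higher in D4PM cells (adjusted p = 0.0024). The other, Slc4a1, differed by 0.17 in D2PM cells (adjusted p = 0.432) and 0.30 in D4PM cells (adjusted p = 0.102), neither of which passed. The part of erythroid RNA in the haem genes was not tested. Slc11a2, the divalent metal importer DMT1, read 6.85 and 6.85 on the D2PM arrays, 6.73, 6.47 and 6.60 on the D4PM arrays, and 7.73 and 8.28 on the old arrays. Slc11a2 was 1.15 lower in D2PM cells (adjusted p = 0.00194) and 1.40 lower in D4PM cells (adjusted p = 0.000194). Ftl1, the ferritin light chain, which stores the iron that haem oxygenase frees, was 0.69 higher in D4PM cells (adjusted p = 0.00443), with 0.48 in D2PM cells (adjusted p = 0.0515). Blvrb, biliverdin reductase B, was 0.70 higher in D2PM cells (adjusted p = 0.00583), with 0.34 in D4PM cells (adjusted p = 0.0647). Of 8 genes acting on superoxide, hydrogen peroxide and oxidised protein, 2 were higher and 1 lower in D2PM cells (37.5% called, beside 19.4% of all genes). In D4PM cells 0 were higher and 1 lower (12.5% called, beside 27.9% of all genes). Sod2, the mitochondrial superoxide dismutase, read 7.77 and 7.69 on the D2PM arrays, 7.59, 7.74 and 7.82 on the D4PM arrays, and 8.99 and 8.62 on the old arrays. Sod2 was 1.08 lower in D2PM cells (adjusted p = 0.00137) and 1.09 lower in D4PM cells (adjusted p = 0.000405). Cat, catalase, was 0.49 higher in D2PM cells (adjusted p = 0.0272), with 0.32 in D4PM cells (adjusted p = 0.0742), and Park7, a redox-sensing chaperone, was 0.59 higher in D2PM cells (adjusted p = 0.0252), with 0.30 in D4PM cells (adjusted p = 0.149). Slc11a2 and Sod2 kept their calls with each array left out. Blvrb, Cat and Park7 were lost in D2PM cells without D2PM replicate 1 or old replicate 2, Cat and Park7 also without D2PM replicate 2, Park7 also without old replicate 1, and Ftl1 was lost in D4PM cells without old replicate 2.

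**Figure D3:**
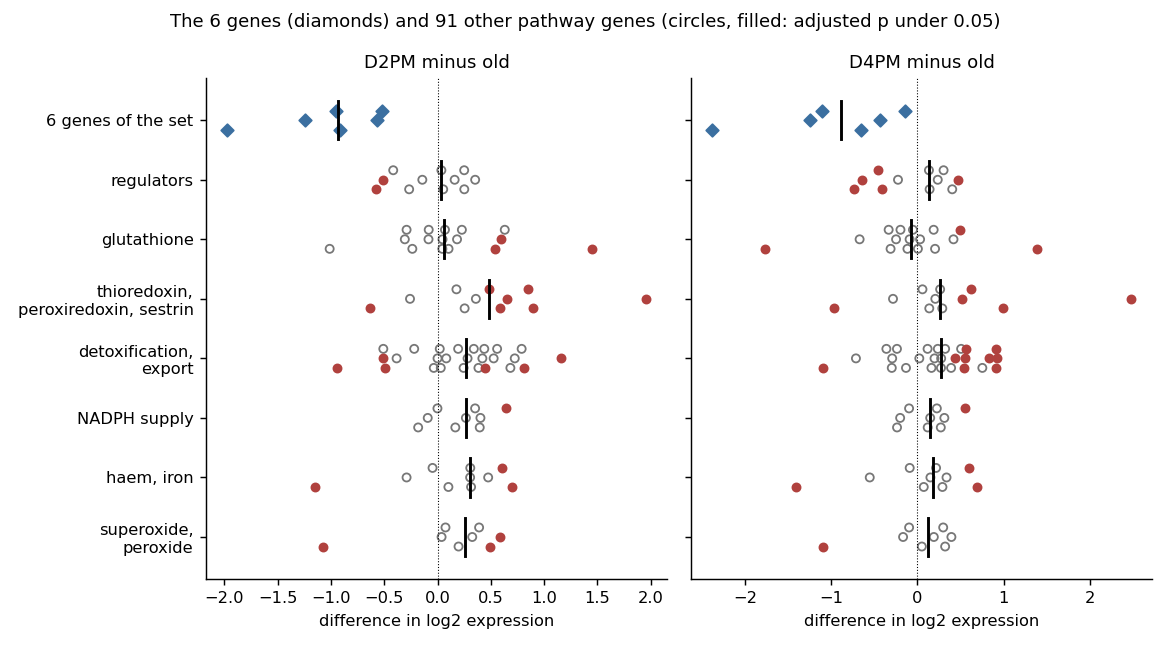
Differences in log2 expression (horizontal axis) of the 6 genes and of 91 other pathway genes by role (rows), for D2PM minus old (left) and D4PM minus old (right); the 6 genes are diamonds and the others circles, filled where limma's adjusted p was under 0.05, with the median of each row as a vertical bar and points spread within a row only to be seen. The 6 genes have medians of -0.94 and -0.88, and the 91 others have medians of 0.20 and 0.16 with filled circles on both sides of 0.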

How the data were processed

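RNA of sorted satellite cells was measured on 7 Affymetrix arrays (2 D2PM, 3 D4PM, 2 old). The authors deposited log2 expression values per probe set after RMA, and limma is the other tool named in the submitters' processing notes. The versions, the annotation and the genome build are not given in the sources used here. The table held 18675 probe sets. GEO's platform annotation gave 14480 of them 1 gene, 774 several and 3421 none, and 14425 were matched to RefSeq by Entrez identifier with 0 symbols changed. The brightest probe set was kept per gene, and genes with a mean under the 25th percentile (5.12) were left out, which left 9944 of 13287. Group means were fitted over all 7 arrays with limma 3.58.1 in R 4.3.3 (lmFit, eBayes), and p-values were adjusted by Benjamini-Hochberg over all genes, with a threshold of 0.05. The scripts were tested on simulated data. Array data have no read depth, and the number of arrays limits the precision.

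The 8 genes and the gene lists were chosen with earlier results of these data known. From the wider list, up to 3 genes per role past the threshold against old cells with the largest absolute difference are named, up to 2 past it between D4PM and D2PM cells, and Keap1 and Bach1 whatever their values. Levels of different probe sets were not compared. The alternatives were other filters, probe set rules, normalization, priors, array weights, a replicate block, a Student's t-test, the post-mortem arrays alone, and each array left out in turn.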

Additional observations from a re-analysis of the deposited data

How the results depend on the processing

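Against old cells, the 6 genes and the 26 other pathway genes whose values or calls are named kept their direction under every alternative run. Much of this was fixed in advance, so it is not evidence about these genes. Other filters and priors and the t-test leave the difference itself unchanged. Leaving out 1 array cannot reverse a difference between groups whose arrays do not overlap. Between D4PM and D2PM cells, the differences of Gclc, Gclm and Txnrd1, all close to 0 and none of them called, took either sign when an array was left out (-0.20 to 0.03, -0.21 to 0.21 and -0.42 to 0.05). With 1 array left out, the number of genes called ranged between 326 and 2061 for D2PM against old, 913 and 2519 for D4PM against old, and 0 and 18 for D4PM against D2PM. The ranges for the 6 genes were 2 to 5 and 3 to 4 against old cells. For the 91 others they were 6 to 29, 10 to 29 and, for D4PM against D2PM, 0 to 1.

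A Student's t-test with the same adjustment called 15 genes for D2PM against old (2028 at an unadjusted p under 0.05), 14 for D4PM against old (2747) and 0 for D4PM against D2PM (692). It called 0 of the 6 genes (3 unadjusted) and 0 of the 91 others (24 and 32 unadjusted) in each comparison with old. The post-mortem arrays fitted alone gave 2 genes for D4PM against D2PM. Same-numbered arrays deviated with correlations of -0.08 to 0.05. In a group of 2 arrays the deviations mirror each other, so these values cannot show whether the arrays were paired. With the replicate number as a block, D4PM against D2PM gave 54 genes, and 2 of the 91 others, Glrx and Chac1, both lower in D4PM cells. Only D4PM cells have a replicate 3, so the block sets that array aside. Glrx read 6.53 on it, between the D2PM arrays at 6.64 and 6.31. The difference of Glrx was -1.16 with the block and -0.76, not called, in the main fit. The block gave 6 of the 6 genes in D2PM against old, Gclc included, and 4 in D4PM against old. Over all 9944 genes it gave 2044 and 2483.

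The calls rest on a spread that limma borrows from all genes, with 2 arrays in 2 of the 3 groups, and the signal over background is unknown.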
